A study of Mus musculus with 36 samples.

Results

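Mouse microarrays of this design carry probes for stretches of the genome that the design names only by an interval and a strand. Of the 55681 probes for transcripts on the array, 16181 were of this kind. They covered 4607 named intervals, each given by chromosome, start, end and strand (F or R) in the mm9 mouse genome. Region probes were kept when their Cy5 spot, which holds the lung RNA, was well above background in a group's arrays: all arrays of 3 or more of its mice had to pass. This left 5840 region probes (36.1%) in 2864 intervals. Overlapping intervals of one strand were joined into 3362 loci, of which 2213 held a kept probe. The same filter passed 31008 of all 55681 probes.

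Long noncoding RNAs are transcripts that are spliced and polyadenylated much like mRNAs but carry no long reading frame. Many act in the nucleus on chromatin or on splicing, others bind proteins or microRNAs in the cytoplasm, and for a large share no function is known. In inflamed tissue some of them lie beside cytokine or interferon-response genes and are induced together with these. That these intervals lie between genes and hold noncoding transcripts is the design's premise and was not analysed here, nor was the gene nearest to each interval. An interval marks the probed region, not the position of a probe in it, so several probes of one interval can report different transcripts.

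The lungs came from 29 female C57BL/6 mice aged 5 to 7 weeks, the same range for all groups. All mice received a single dose into the trachea of a suspension with tube-shaped nanoparticles of titanium dioxide (Tube TiO2 NP) at 0, 18, 54 or 162 µg, and lungs were taken at day 1 or day 28. At day 1 there were 4 control mice (0 µg), 3 at 18 µg, 3 at 54 µg and 4 at 162 µg. At day 28 there were 3 control mice and 4 at each dose. RNA of random lung sections in Cy5 was hybridised with a common reference in Cy3, a pool of RNA from 11 mouse cell lines, with the same dye orientation on each of the 36 arrays. Each value below is a log2 ratio of Cy5 over Cy3, so a positive value means more signal in lung than in the reference cells, and a change is the difference between 2 group means on that scale. A pair of arrays each was made for 7 mice and averaged. One of them, replicate 1 of 162 µg at day 28, has titles that give day 1 and a time label that gives day 28, and was kept at day 28.

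Region probes were above background less often than mRNA probes on all arrays. Well above background in Cy5 were 27.1% to 48.5% of region probes per array, against 66.0% to 75.7% of mRNA probes, and no spot was saturated. The 8 lung marker genes were well above background on every array. In addition, 12 of the 36 arrays carried skeletal muscle transcripts. The mean log2 Cy5 of 20 muscle genes was at least 10.3 on them and at most 7.76 on the other arrays. On 8 arrays the mean of 20 genes of squamous epithelium stood apart in the same way, at 9.72 or more against 7.63 or less. The muscle arrays belonged to all 4 control mice of day 1, 1 mouse at each dose of day 1 (replicate 3 at 18 µg, replicate 2 at 54 µg, replicate 3 at 162 µg), replicate 1 of 18 µg at day 28 and replicates 1, 2 and 3 of 54 µg at day 28. Control replicate 1 of day 1 had 1 array with muscle transcripts (muscle list at 14.0) and 1 without (7.17). Control mice and mice given 162 µg at day 28 had none. The 162 µg comparison at day 1 therefore sets 4 muscle-carrying controls against 1 such mouse of 4, and the comparison of 162 with 54 µg at day 28 sets none of 4 against 3 of 4. In bulk sections, fewer cells of a type and less RNA per cell cannot be told apart.

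Where transcripts of regions were measured, their signal lay mostly near the detection limit. A share of 36.1% of region probes passed the filter, against 72.1% of 26695 mRNA probes and 40.2% of 1472 noncoding RNA probes with RefSeq accessions. The quartiles of mean log2 Cy5 of the 5840 members were 6.66, 7.03 and 7.82, and the median of passing mRNA probes was 8.82. The 406 probes that passed in just 3 mice of 1 group had a median log2 Cy5 of 6.46, and the 875 that reached no more than 2 mice in any group had 6.39. Of the members, 3651 passed in all 8 groups, 3156 were above background on every array, 456 passed through 1 group alone and 664 through groups given particles alone. These are signals of probes that bind with different strength, so they give no order of transcript amounts.

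**Figure D1:**
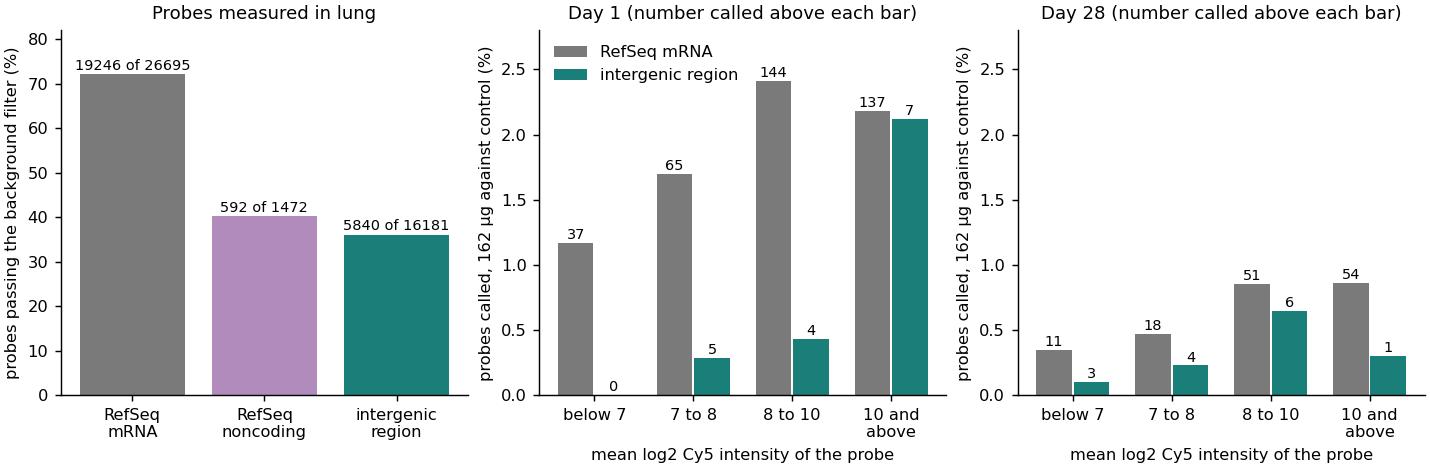
Left: percent of probes of each class well above background in at least 3 mice of a group (36.1% of region probes). Middle and right: percent of passing region and mRNA probes called at 162 µg against control at day 1 and at day 28, by mean log2 Cy5, with the number called over each bar. At day 1 no region probe under 7 was called, and 2.12% of those at 10 or more were.

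Intervals were 62 to 538251 bases long with a median of 11608, and 9099 where no probe was kept. They held 1 to 10 probes with a median of 3. Kept probes were spread over 20 chromosomes and both strands, 2739 on F and 3101 on R, with the most intervals on chromosome 1 (213) and the fewest on chromosome 19 (67). The design probed both strands of 1067 intervals. Both strands gave a kept probe in 518 of these, F alone in 192, R alone in 229 and neither in 128. In the 1481 intervals with more than 1 kept probe, the SD of the mean log2 ratio between probes had a median of 0.16.

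Log2 ratios of most region probes lay within 1 of 0. For dim probes the offset added to both dyes draws the ratio towards 0, and Cy3 was not filtered, so a ratio near 0 does not show similar transcript levels in lung and reference. The log2 ratio was above 1 for 5.51% of members and below -1 for 4.33%, against 17.6% and 9.70% of mRNA probes. The brightest region probe in lung lay in chr19:5801802-5802597 on R, with a mean log2 Cy5 of 17.0 and a mean log2 ratio of 1.78 ± 0.49 (SD, n = 29 mice). It was followed by chr14:78924115-78938125 on F (16.7, ratio 1.14) and chr17:17481706-17482457 on R (16.4). The chromosome 17 probe hardly varied, with a ratio of 0.90 ± 0.09 (SD, n = 29 mice) and a range of 0.69 to 1.11. The fourth, in chr11:22681800-22707775 on R, had a ratio of -0.10 ± 0.11 (SD, n = 29 mice). The fifth, in chr6:116092274-116144199 on F, tracked the chromosome 14 probe: the log2 ratio of the second minus that of the fifth stayed between -0.04 and 0.33 in all 29 mice, with a median of 0.07, and the sequences of these probes were not compared.

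Among members above background on every array, the highest ratio of lung to reference belonged to a probe of chr16:11008534-11013759 on F, at 4.42 ± 0.47 (SD, n = 29 mice). Next came 3 probes of chr8:93337794-93348869 on R, at 4.07, 3.57 and 3.36 with SDs of 0.65, 0.56 and 0.62, and ranged from 2.17 to 5.47 over the mice. The fifth, in chr13:58474388-58487288 on R, varied less, at 3.20 ± 0.15 (SD, n = 29 mice). At the other end stood transcripts abundant in the reference cells: a probe of chr5:23195569-23218551 on R at -4.43, one of chrX:138967807-138968413 on R at -3.83 and one of chr17:95150800-95180650 on F at -3.63. None of these bright or extreme probes was called in any dose comparison.

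**Figure D2:**
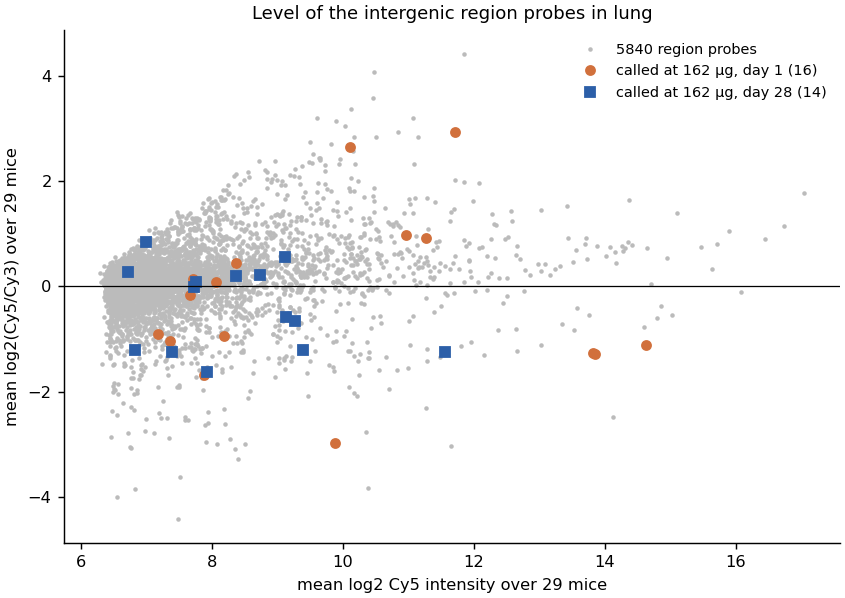
Each point is one of the 5840 region probes, with its mean log2 Cy5 signal over 29 mice on the x axis and its mean log2 ratio of Cy5 over Cy3 on the y axis; probes called at 162 µg are marked by day. Called probes lie on both sides of 0, with mean log2 Cy5 between 6.71 and 14.6.

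At day 1 after 162 µg, a small set of regions changed, most of them upwards. The clearest rises were on chromosome 12 (chr12:117623500-117643575, R) and chromosome 6 (chr6:116123643-116124550, F), 1.39-fold to 1.53-fold. The largest changes were falls of 2.04-fold and 1.99-fold on chromosomes 10 and 8. In limma, with p-values adjusted over all 31008 probes by the Benjamini-Hochberg method within the comparison and called under 0.05, 16 region probes differed from the day 1 control: 12 rose and 4 fell. They lay in 12 intervals and 11 loci. That is 0.274% of the members, and 1.4% of all tested probes were called (1.24% rose and 0.161% fell). At an unadjusted p under 0.05 there were 454 members, 7.77%, against 12.2% of all probes. The split into 12 rises and 4 falls was 10 and 6 with the scanner's processed signals, 2 and 0 with median centring and 7 and 4 with the authors' deposited value table. The median change was -0.03 over members and 0.01 over all probes.

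The 16 changes were 0.37 to 1.03 in size on the log2 scale, with SEs of 0.07 to 0.25. With the scanner's processed signals the rises of A_30_P01021644 and A_30_P01027809 on chromosome 12 were 0.73 and 0.92 in place of 0.47 and 0.55, and both stayed called. Called probes were brighter than most members, with a median log2 Cy5 of 9.12. In every called change, here and below, the mice of the 2 groups did not overlap, so separate groups add no support to a call.

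The probe of chr12:117623500-117643575 on R had the lowest adjusted p of day 1 (A_30_P01021644). Its log2 ratio was -1.08, -1.11, -1.11 and -1.14 in the control mice and -0.62, -0.55, -0.80 and -0.58 at 162 µg. At 54 µg it was -0.88, -0.91 and -0.99, and at 18 µg -1.18, -1.22 and -1.25. In this probe, picked for its low adjusted p, the 4 dose groups of day 1 did not overlap. The 162 µg mice were highest, 54 µg next and 18 µg lowest, below the controls, but no region probe was called at 18 µg. The rise at 162 µg was 0.47 ± 0.07 (SE), 1.39-fold, adjusted p = 0.000575 in limma, and the 0.18 at 54 µg was not called (adjusted p = 0.628). At day 28 the 162 µg mice differed from their controls by 0.03. A second probe of the interval (A_30_P01027809) rose by 0.55 ± 0.10 (SE, limma adjusted p = 0.00433). The third of its measured probes was at 0.34 with an adjusted p of 0.12, and the other 2 of its 5 probes were not measured.

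All 3 probes of chr6:116123643-116124550 on F, an interval of strong lung signal, rose as well. The brightest, A_30_P01026611, with a mean log2 Cy5 of 14.6, had log2 ratios of -1.35, -1.57, -1.24 and -1.24 in the controls and -0.56, -0.69, -1.13 and -0.57 at 162 µg. It was -0.96, -0.93 and -0.87 at 54 µg, above each control, and -1.14, -1.07 and -1.38 at 18 µg, where 1 mouse overlapped them. The 162 µg mouse nearest to the controls was replicate 3, the one with muscle transcripts. The rise was 0.61 ± 0.12 (SE), 1.53-fold, adjusted p = 0.00579 in limma, and 0.43 at 54 µg was not called (adjusted p = 0.442). The other 2 probes rose by 0.58 (A_30_P01026091, adjusted p = 0.0065) and 0.57 (A_30_P01021866, adjusted p = 0.0208). A longer interval of the same strand, chr6:116092274-116144199, spans this one. Its 3 measured probes were at -0.30, -0.08 and -0.01, and none was called, so probes of one locus differed in direction.

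The interval chr2:128137419-128141735 on R changed from below to above the reference in most treated mice. A_30_P01027827 had log2 ratios of -0.41, -0.41, -0.36 and -0.63 in the controls and 0.41, 0.36, -0.31 and 0.32 at 162 µg. Replicate 3, with muscle transcripts, is again the treated mouse closest to the controls. The rise was 0.65 ± 0.16 (SE), 1.56-fold, adjusted p = 0.0323 in limma. Its other measured probes were at 0.58 and 0.49 (adjusted p = 0.093 and 0.17), and all 9 measured probes of the overlapping locus had positive values with a median of 0.34.

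The remaining named rises of day 1 came from 4 other loci. The single measured probe of chr1:193815525-193825775 on F, a transcript much weaker in lung than in the reference cells, had log2 ratios of -3.01, -2.85, -2.93 and -3.17 in controls and -2.29, -2.52, -2.36 and -2.27 at 162 µg. The groups are separate, and the rise was 0.63 ± 0.16 (SE, adjusted p = 0.0412 in limma). In chr10:83181374-83249774 on F the controls had -1.03, -1.14, -0.81 and -1.03 and the treated mice -0.39, -0.14, -0.75 and -0.53, with replicate 3 again lowest. This rise was 0.55 ± 0.14 (SE, adjusted p = 0.0388 in limma), and all 9 measured probes of the locus were positive. In chr2:173421598-173485043 on R the controls had 0.00, -0.27, -0.06 and -0.09 and the treated mice 0.33, 0.86, 0.17 and 0.21, so that 1 mouse, replicate 2, stood well above the rest. The rise was 0.50 ± 0.12 (SE, adjusted p = 0.0362 in limma).

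In the interval chr7:128341797-128414692 on R, 2 of 5 measured probes rose. The changes of all 5 at 162 µg lay between 0.38 and 0.45. For A_30_P01020072 the controls had 0.27, 0.15, 0.36 and 0.41 and the treated mice 0.72, 1.00, 0.59 and 0.69, with no overlap (0.45 ± 0.10 SE, adjusted p = 0.0248 in limma). The second called probe, A_30_P01028728, rose by 0.43 (adjusted p = 0.0306), and by 0.28 with array weights (adjusted p = 0.0114). With the muscle arrays dropped, the rises of these probes were 0.50 and 0.49, no smaller than before. That fit has 1 control of day 1 to compare against, so it cannot decide their calls. With muscle and squamous covariates the rises were 0.39 and 0.37, and neither was called (adjusted p = 0.0524 and 0.0578 in limma). At 54 µg the 5 probes were between 0.05 and 0.25, and none was called. Outside the naming rule, the last of the 12 rises lay in chr17:32213027-32228368 on R (0.37 ± 0.09 SE, adjusted p = 0.0418 in limma).

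Falls at day 1 came from 3 loci. A_30_P01018239, the single measured probe of 3 in chr10:81069014-81083448 on F, had log2 ratios of 2.59, 2.93, 3.14 and 3.23 in the controls and 2.45, 1.54, 1.81 and 1.97 at 162 µg. The highest treated mouse, replicate 1, lay just under the lowest control. The change was -1.03 ± 0.22 (SE), 2.04-fold lower, adjusted p = 0.0125 in limma. A_30_P01032425 of chr8:26345571-26346095 on R, also strong in lung against the reference, had 3.38, 3.23, 3.70 and 3.39 in the controls and 2.81, 1.93, 2.42 and 2.56 at 162 µg. Its groups were further apart (-0.99 ± 0.25 SE, 1.99-fold lower, adjusted p = 0.04 in limma). The other 10 of 11 measured probes of the overlapping locus pointed the other way, up to 0.56, and none of them was called. This probe was bright, at a log2 Cy5 of 11.7, and the other 2 of its interval were at 6.86 and 6.44.

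The third locus, chr5:123582742-123588202 on R, fell at day 1 and not at day 28. A_30_P01031894, named for chr5:123582742-123588117, had log2 ratios of 0.96, 1.09, 0.94 and 0.99 in the controls and 0.47, 0.54, 0.73 and 0.50 at 162 µg, with no overlap. The fall was -0.44 ± 0.09 (SE), 1.36-fold lower, adjusted p = 0.0115 in limma. A second probe, A_30_P01022612, had 0.97, 1.03, 0.87 and 0.91 against 0.41, 0.40, 0.64 and 0.42 (-0.48 ± 0.11 SE, adjusted p = 0.0309). With median centring these changes were -0.23 and -0.26 and neither was called (adjusted p = 0.811 and 0.799). Of the 8 measured probes of the locus 7 were negative, from -0.48 to 0.01 over the 8. At day 28 A_30_P01031894 was at 1.04, 1.17 and 0.85 in the controls and at 1.18, 1.21, 1.28 and 1.36 at 162 µg, a difference of 0.24 that was not called (adjusted p = 0.852). The day 28 change minus the day 1 change was 0.68 ± 0.14 (SE). Its adjusted p of 0.0963 in limma was the lowest among members for that test and missed the threshold.

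**Figure D3:**
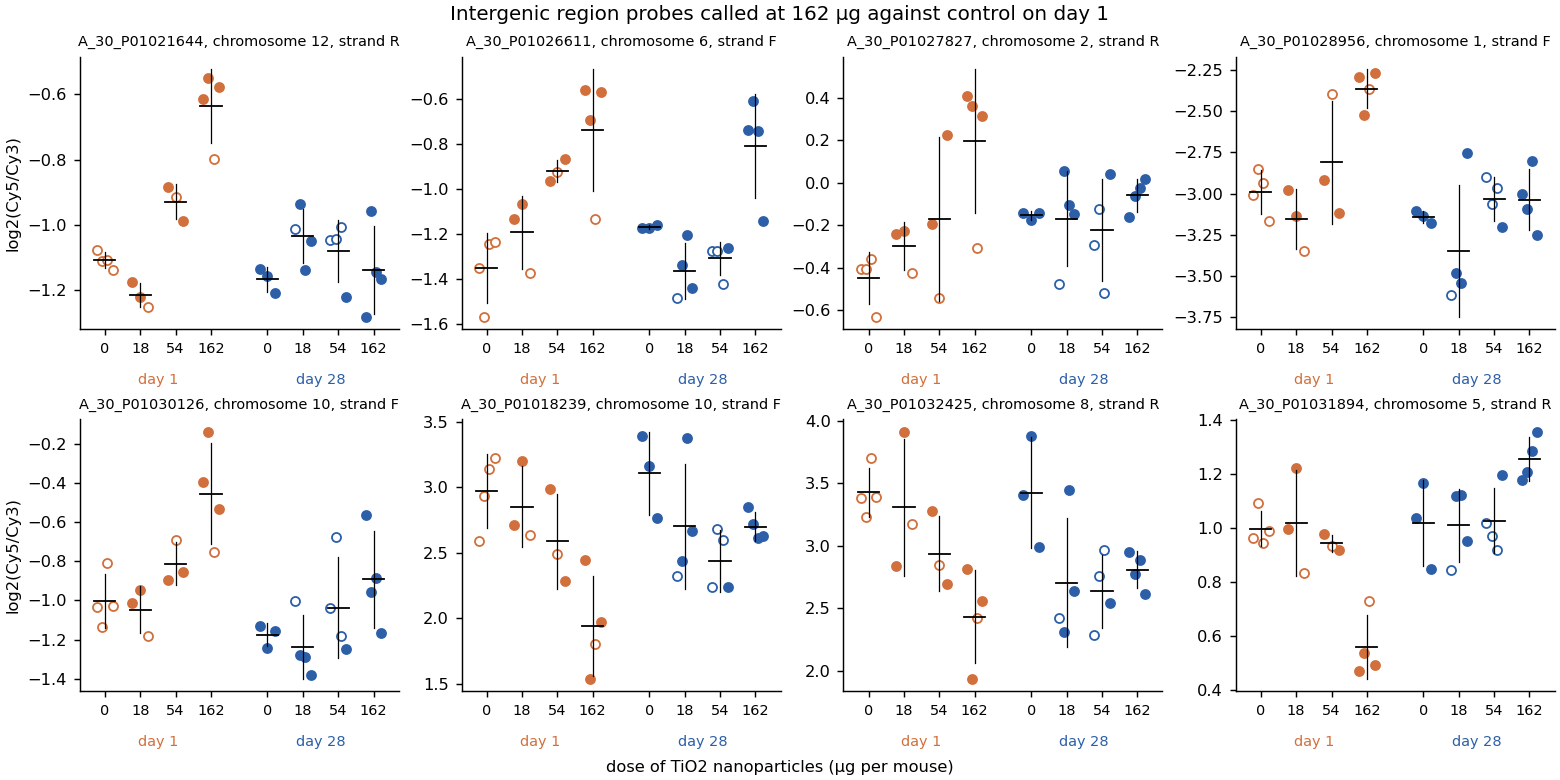
Log2 ratio of Cy5 over Cy3 per mouse in the 8 dose-by-day groups for 8 region probes called at 162 µg at day 1. Each point is a mouse, lines are group means and bars ± SD. Open points are mice with skeletal muscle transcripts on at least 1 array. In each panel the 4 mice of 162 µg at day 1 lie apart from the 4 controls of that day, all of which are open points. The groups lie apart in every region probe called in this comparison.

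The sections with muscle transcripts move with the day 1 comparison. The level of the muscle list was taken as the mean log2 Cy5 of 20 genes. It ranged from 10.6 to 12.9 in the controls of day 1 and from 7.22 to 13.6 at 162 µg. The 10.6 is the mean of the 2 arrays of control replicate 1, at 7.17 and 14.0. The 11 measured immune cell genes ranged from 10.6 to 11.0 and from 11.0 to 11.2. The squamous list ran from 7.56 to 12.6 and from 7.24 to 12.3, and the cardiac muscle list from 10.4 to 12.9 and from 9.13 to 12.1. Without the muscle arrays 1 control mouse of day 1 is left, replicate 1 by its other array. Of the 16 called probes 1 was then still called, A_30_P01026091 on chromosome 6 (0.66, adjusted p = 0.0385 in limma), among 34 region probes called in all. The fall of A_30_P01018239 on chromosome 10 was then -0.46 (adjusted p = 0.602), -0.53 with array weights (adjusted p = 0.0553), and that of A_30_P01032425 on chromosome 8 was -1.33 (adjusted p = 0.161). With the 8 day 1 mice of this comparison fitted alone, no region probe was called.

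At day 28 after 162 µg, 7 of the 14 called region probes lay in one stretch of chromosome 1 (chr1:175653557-175672031, R). These 7 rose 1.51-fold to 2.73-fold. Other rises came from a further interval of chromosome 1 and from chromosomes 6, 9 and 11. The one locus that fell was chr3:145313275-145315057 on F. In limma, adjusted over all 31008 probes as before, 14 region probes differed from the day 28 control: 12 rose and 2 fell, in 8 intervals and 6 loci. That is 0.24% of the members, and 0.532% of all tested probes were called (0.522% rose and 0.00967% fell). At an unadjusted p under 0.05 there were 250 members, 4.28%, against 4.57% of all probes. The split of 12 and 2 was 7 and 0 with the scanner's processed signals and 9 and 0 both with median centring and with the authors' deposited value table. The median change was -0.01 over members and -0.00 over all probes.

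The 14 changes were 0.59 to 1.45 in size on the log2 scale. The called probes had a median log2 Cy5 of 8.14, and 11 of the 14 were above background on every array. The dimmest were A_30_P01024706 at 6.71, above background on 28 of 36 arrays, A_30_P01018850 at 6.83 (34 arrays) and A_30_P01029545 at 6.99 (35 arrays). None of the 14 was among the 16 called at day 1. Of the 14, 13 changed in the same direction at day 1, and of the 16, 13 did so at day 28. The test of the difference between the days called no region probe, so the 2 lists are not shown to be distinct.

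The lowest adjusted p among region probes was that of A_30_P01019537 in chr1:175653557-175671940 on R. Its log2 ratio was 0.09, 0.09 and 0.47 in the control mice and 1.24, 1.71, 1.75 and 1.57 at 162 µg. It was 0.75, 0.28, 0.48 and 0.07 at 54 µg and 0.13, 0.19, 0.24 and 0.40 at 18 µg. Mice given 162 µg thus all lay above every other mouse of that day, and the lower doses overlapped the controls. The rise was 1.35 ± 0.18 (SE), 2.55-fold, adjusted p = 0.000324 in limma. At day 1 the same probe was at 0.29, 0.97, 0.23 and 0.26 in controls and 0.56, 0.55, 0.95 and 1.11 at 162 µg, which overlap (0.36, adjusted p = 0.399). The difference between the days was 0.99 and was not called (adjusted p = 0.297).

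Other probes of the stretch rose in the same mice. A_30_P01021447, of the same interval, had log2 ratios of -0.91, -1.02 and -0.70 in the controls and 0.19, 0.72, 0.42 and 0.55 at 162 µg (1.35 ± 0.22 SE, 2.55-fold, adjusted p = 0.00193 in limma). A_30_P01017895, of chr1:175654606-175672031, had -1.50, -1.88 and -1.37 against -0.38, 0.05, -0.04 and -0.15, the largest rise of the members called that day (1.45 ± 0.26 SE, 2.73-fold, adjusted p = 0.00592 in limma). The control mice lay below the reference pool in both probes. In all 3 probes the lowest treated mouse was replicate 1, the one with conflicting day labels. A_30_P01021597 rose by 1.20 ± 0.25 (SE, adjusted p = 0.0207 in limma), A_30_P01031526 by 0.95 ± 0.18 (adjusted p = 0.0071), A_30_P01029545 by 0.75 ± 0.15 (adjusted p = 0.0153) and A_30_P01024706 by 0.59 (adjusted p = 0.0431). With the scanner's processed signals the last 2 were 1.63 (adjusted p = 0.0213) and 1.37 (adjusted p = 0.977, not called).

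The array probes this stretch through 3 overlapping intervals, and all 11 of their probes were measured. Their changes at 162 µg at day 28 ranged from 0.51 to 1.45 with a median of 0.95, and 7 were called. At 54 µg they ranged from -0.21 to 0.24 and at 18 µg from -0.14 to 0.11. At day 1 after 162 µg all 11 were positive, from 0.18 to 0.53 with a median of 0.36, and none was called. On the opposite strand, the probes of chr1:175654606-175672031 on F did not pass the filter. Named genes on chromosome 1 that rose in the same comparison include Ifi204 (1.55, adjusted p = 0.00469 in limma), Ifi207 (1.08, adjusted p = 0.00593) and Ifi211 (1.76, adjusted p = 0.00511), members of a family of interferon-inducible genes of the innate response. They were chosen after their values were seen, and other members of the family are not given here. Their distance from the stretch was not determined, and a link to its rise was not tested.

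**Figure D4:**
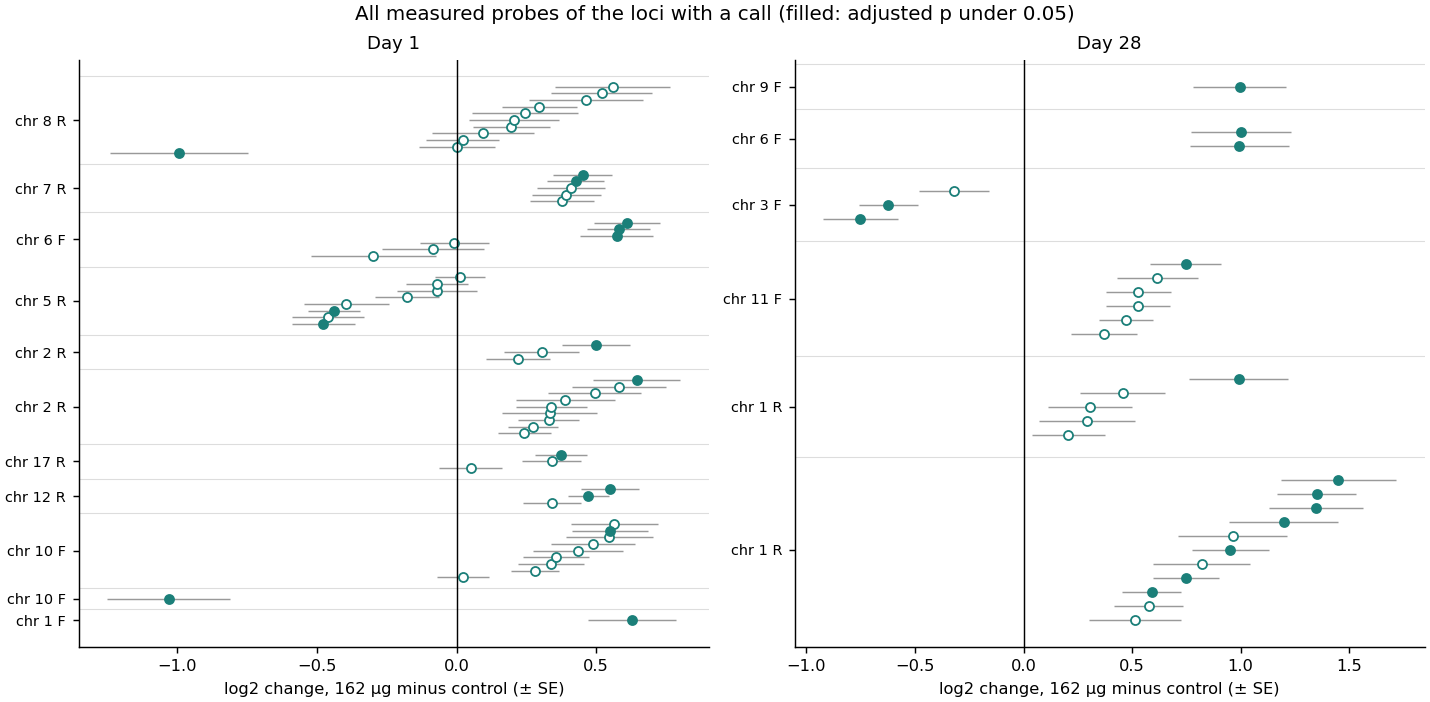
Change on the log2 scale against the control of the day at 162 µg for every measured probe of each locus with a called probe, with bars of ± SE; filled points are called. All 11 probes of the chromosome 1 stretch lie above 0 at day 28, from 0.51 to 1.45, while 1 of 11 probes of the chromosome 8 locus lies far below 0 at day 1.

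A separate interval, chr1:175705225-175717250 on R, rose too. A_30_P01024163 had log2 ratios of -1.28, -1.61 and -1.24 in the controls and -0.63, -0.23, -0.25 and -0.45 at 162 µg, with no overlap (0.99 ± 0.23 SE, 1.99-fold, adjusted p = 0.0439 in limma). All 5 of its measured probes were positive, from 0.21 to 0.99, and no probe of the opposite strand was measured.

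On chromosome 6, both called probes of chr6:57583950-57624216 on F rose by about the same amount. A_30_P01025572 had log2 ratios of -0.01, -0.08 and 0.45 in the controls and 0.65, 1.10, 1.52 and 1.22 at 162 µg. The rise was 1.00 ± 0.23 (SE), 2.00-fold, adjusted p = 0.0474 in limma, and that of A_30_P01025357 was 0.99 ± 0.23 (SE, adjusted p = 0.0447). At day 1 after 162 µg A_30_P01025572 was at 0.47, 0.69, -0.08 and 1.07, and the 0.77 over the control of that day was not called (adjusted p = 0.0816).

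On chromosome 9, A_30_P01031689 of chr9:89167172-89168980 on F had log2 ratios of -0.04, 0.13 and -0.01 in the controls, 0.57, -0.20, 0.08 and 0.00 at 18 µg, 0.98, 0.58, 0.24 and 0.13 at 54 µg and 1.31, 1.21, 1.26 and 0.30 at 162 µg. At 162 µg 3 of the 4 mice stood above every other mouse of the day, and replicate 4 lay among those given 54 µg. The rise was 1.00 ± 0.22 (SE), 1.99-fold, adjusted p = 0.0279 in limma. At day 1 its change was -0.08. It was the single measured probe of the 3 in its interval.

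On chromosome 11, A_30_P01019306 of chr11:119254413-119296960 on F had log2 ratios of -0.15, -0.26 and -0.12 in the controls and 0.14, 0.73, 0.67 and 0.75 at 162 µg, with replicate 1 low (0.75 ± 0.16 SE, adjusted p = 0.032 in limma). All 6 measured probes of the overlapping locus were positive, from 0.37 to 0.75.

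The interval that fell, chr3:145313275-145315057 on F, did so in 2 of its 3 measured probes. A_30_P01019152 had log2 ratios of -0.93, -0.99 and -0.93 in the controls and -1.80, -1.72, -1.73 and -1.56 at 162 µg, and A_30_P01018850 had -0.87, -1.19 and -0.93 against -1.69, -1.54, -1.52 and -1.72. Both left a wide gap between the groups. The changes were -0.75 ± 0.17 (SE, 1.68-fold lower, adjusted p = 0.0418 in limma) and -0.62 ± 0.14 (SE, 1.54-fold lower, adjusted p = 0.0287), and the third probe was at -0.32. With the scanner's processed signals the 2 changes were -1.31 and -1.34 and neither was called (adjusted p = 0.0512 and 0.0984). At day 1 after 162 µg A_30_P01019152 was at -0.43 (adjusted p = 0.224).

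**Figure D5:**
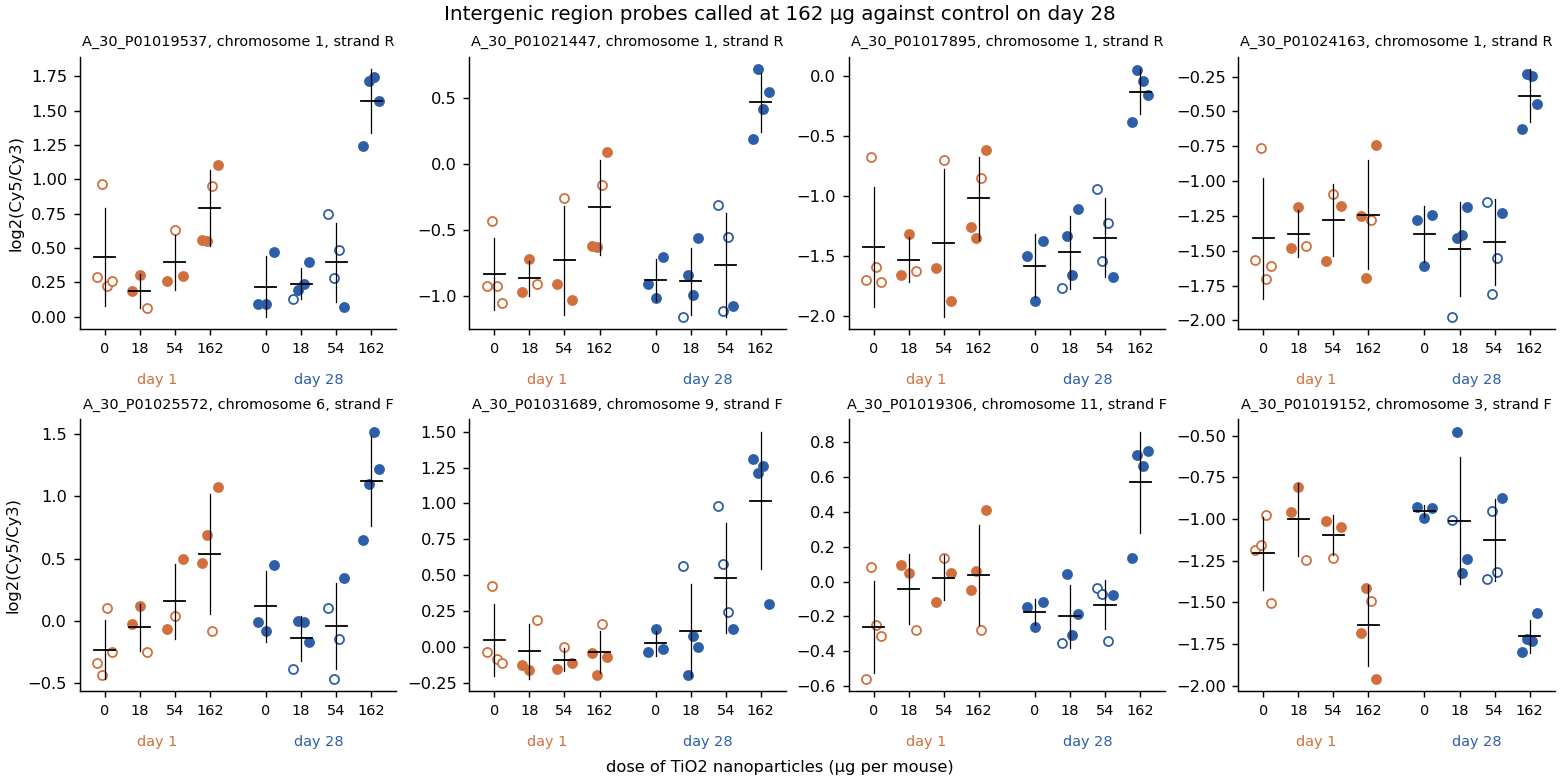
Log2 ratio of Cy5 over Cy3 per mouse in the 8 dose-by-day groups for 8 region probes called at 162 µg at day 28; points, open points, lines and bars as in the plot of day 1 regions. The 4 mice given 162 µg at day 28 lie apart from the 3 controls of that day in each panel, and none of these 7 mice is an open point. The groups lie apart in every region probe called in this comparison.

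Neither group of this comparison held a muscle array. The muscle list ranged from 7.00 to 7.30 in the controls and from 7.08 to 7.36 at 162 µg, and the immune list from 10.9 to 11.1 and from 10.9 to 11.5. The lung marker list was lower at 162 µg without overlap, from 14.81 to 14.92 in the controls and from 14.46 to 14.79 at 162 µg, and so was the list of named long noncoding RNAs, from 8.76 to 8.78 and from 8.65 to 8.75. The part of these differences in the result was not tested. Without the muscle arrays of the other groups 13 of the 14 probes were still called, and 5 of the 7 called probes of the chromosome 1 stretch (A_30_P01019537, A_30_P01021447, A_30_P01017895, A_30_P01031526 and A_30_P01021597) kept their call in each alternative setting that tested them. Leaving out 1 mouse left 3 to 11 region probes called. The count was 3 without control replicate 2, 4 without control replicate 1, 6 without control replicate 3, 9 without replicate 1 at 162 µg, 6 without its replicate 3 and 5 without its replicate 4, and A_30_P01019537 and A_30_P01021447 were called each time. A_30_P01017895 was called in 6 of the 7 fits, A_30_P01031526 in 5 and A_30_P01021597 in 1. With any 1 of the 7 mice left out, A_30_P01024163 and A_30_P01024706 on chromosome 1 and A_30_P01019152 on chromosome 3 were not called.

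For day 1, leaving out 1 mouse gave 7 to 45 called region probes. The count was 45 without replicate 3 at 162 µg, the mouse with muscle transcripts, 7 without its replicate 1 or 4, 10 without its replicate 2, 7 without control replicate 2 and 9 without control replicate 1 or 4. The probes A_30_P01021644 and A_30_P01027809 on chromosome 12 and A_30_P01026611 and A_30_P01026091 on chromosome 6 were called each time.

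Set directly against 54 µg at day 28, 162 µg gave higher signal on chromosome 1 and at a few regions that had not been called against the control. In limma 18 region probes differed, 17 higher and 1 lower at 162 µg, in 11 intervals and 8 loci. This is 0.308% of members, and 0.874% of all probes were called (0.871% higher and 0.00322% lower). For A_30_P01019537 on chromosome 1 the difference was 1.17 (adjusted p = 0.000661). The interval chr7:111526943-111545093 on R, called here and not against the control, had log2 ratios of 0.91, 0.40, 0.63 and 1.10 at 54 µg and 1.48, 2.02, 1.45 and 1.73 at 162 µg. Its groups were separate by 0.91 (adjusted p = 0.00731), and against the control the 162 µg mice were higher by 0.79 (adjusted p = 0.0573). In chr9:106170918-106177894 on F, A_30_P01024379 had 0.65, 0.61, 0.57 and 0.57 at 54 µg and 1.25, 1.08, 1.17 and 1.04 at 162 µg, tight groups that differed by 0.54 (adjusted p = 0.0267). A_30_P01025491 of chr11:119250824-119286324 on F differed by 0.54 (adjusted p = 0.0173) and A_30_P01026611 on chromosome 6 by 0.50 (adjusted p = 0.039). With the scanner's processed signals A_30_P01024379 and A_30_P01025491 differed by 1.22 and 1.02 and were not called (adjusted p = 0.0991 and 0.0886), and with array weights A_30_P01019537 differed by 0.74 and stayed called (adjusted p = 0.000119).

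Among the day 28 mice at 54 µg the skeletal muscle list ran from 7.12 to 13.0, against 7.08 to 7.36 at 162 µg. The cardiac list ran from 8.97 to 16.0 (8.27 to 11.3 at 162 µg), the squamous list from 7.18 to 12.5 (7.19 to 7.46) and the immune list from 10.5 to 11.1 (10.9 to 11.5). Without the muscle arrays, which leaves 1 mouse at 54 µg, 3 of the 18 stayed called, and the difference was 0.57 for A_30_P01024661 on chromosome 7 (adjusted p = 0.961) and 0.34 for A_30_P01025491 on chromosome 11 (adjusted p = 0.9997). With the muscle and squamous lists as covariates 6 of the 18 stayed called, and with the 8 mice of the comparison fitted alone 1 was called. Leaving out 1 mouse gave 7 to 30: 30 without replicate 4 at 54 µg, 7 without its replicate 2, 8 without its replicate 3, 7 without replicate 2 at 162 µg and 11 without its replicate 3. Within slides 7 of the 18 had the opposite sign in 1 of 5 slides.

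No region probe was called at the lower doses. At day 1 limma called 0 members and 0.0387% of all probes at 54 µg. At an unadjusted p under 0.05 there were 265 members, 4.54%, against 7.61% of all probes. At day 28 it called 0 members and 0% of all probes at 54 µg. The unadjusted count was 218 members, 3.73%, against 5.73% of all probes. At 18 µg it called 0 members and 0% of all probes on both days. The unadjusted counts were 184 (3.15%, against 4.21% of all probes) at day 1 and 214 (3.66%, against 4.32%) at day 28. Between 162 and 54 µg at day 1, limma called 0 members and 0.00645% of all probes, with a lowest adjusted p of 0.0837 among members. The unadjusted count was 215, 3.68%, against 4.57% of all probes. Between the control mice of the 2 days it called 0 members and 0% of all probes. The unadjusted count was 197, 3.37%, against 4.92% of all probes. With 3 or 4 mice a group, these counts say what this number of animals could show, not that regions were unchanged.

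Whether a dose changed regions differently on the 2 days was tested as the day 28 change minus the day 1 change. At 162 µg limma called 0 members and 0.0226% of all probes, and at 54 and 18 µg 0 members and 0% of all probes. At an unadjusted p under 0.05 there were 149 members at 162 µg, 2.55%, against 3.7% of all probes. The counts were 330 (5.65%, against 10% of all probes) at 54 µg and 299 (5.12%, against 6.81%) at 18 µg. So although no region probe was called at 162 µg on both days, the test of the difference between days named none.

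The share of region probes called is given here by brightness, with 0 to 7 calls in a range and no test of a trend. At day 1 after 162 µg, 0% of the 2834 members with a mean log2 Cy5 under 7 were called, 0.286% of the 1748 from 7 to 8, 0.431% of the 928 from 8 to 10 and 2.12% of the 330 at 10 or more. mRNA probes gave 1.17%, 1.7%, 2.41% and 2.18% in the same ranges. At day 28 the shares were 0.106%, 0.229%, 0.647% and 0.303% for regions and 0.349%, 0.472%, 0.852% and 0.859% for mRNAs. Region shares were thus below those of mRNA probes in each range of both days, by least in the brightest range of day 1. The residual SD had a median of 0.174 for members and 0.213 for mRNA probes. The pairs of arrays of one mouse differed by a median of 0.14 to 0.18 over members, and pairs of mice of one group by 0.12 to 0.27. The ranges of these 2 differences overlap.

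Probes with RefSeq noncoding accessions gave a few calls: 4 of 592 (0.676%) at 162 µg at day 1 and 5 (0.845%) at day 28, where the share of mRNA probes was 1.99% and 0.696%. Of the long noncoding RNAs on a list of known names, none was called. Of 50 listed symbols 28 were found on the array by name. Of these, 23 had probes that passed the filter, 33 probes in all. In limma 0 were called at 162 µg at day 1 (5 at an unadjusted p under 0.05) and 0 at day 28 (1 at an unadjusted p under 0.05), with median changes of 0.03 and -0.05. The largest value at day 1 was that of Mirt2, a transcript named for its rise after cardiac infarction (0.72, adjusted p = 0.198). Neat1, the scaffold of nuclear paraspeckles, was at -0.43 (adjusted p = 0.212) and Malat1, a nuclear transcript of splicing speckles, at -0.37 (adjusted p = 0.379). At day 28 they were at 0.28, -0.19 and -0.25.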

How the data were processed

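Lung RNA in Cy5 and reference RNA in Cy3 were measured on 36 arrays of 29 mice. Per the file headers, Agilent Feature Extraction (version 11.0.1.1) read the spots of an mm9 design, and the deposited files give spot and local background intensity per dye; nothing else done to these intensities by the authors is used here. The value table that the authors deposited holds log2 ratios (Cy5 over Cy3) whose normalization is not given in the sources used here. It served as an alternative and correlated per array, across probes that are not independent replicates, at r = 0.986 to 0.997 with the ratios computed here.

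Median signals (the plan named means, which the files lack) were background-corrected by normexp with an offset of 50 and normalized by loess within each array, with control spots at weight 0 and outlier-flagged spots left out. Arrays of one mouse were averaged. One model with a mean per dose-by-day group was fitted to all passing probes with limma 3.58.1 (R 4.3.3 with version 1.17.8 of the package data.table; 21 residual and 3.03 prior degrees of freedom), two-sided, with 12 comparisons. The script was tested on simulated data. Several probes of a locus are not independent, and nothing says more about the mice of a group than that they are separate animals.

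Members and lists were chosen with earlier results of these data known. Text names, per comparison at 162 µg, up to 10 largest rises and 5 largest falls among called probes whose treated mice all lie on the same side of the controls' mean, the 3 lowest p against 54 µg, the 5 brightest probes, the 5 highest and 3 lowest ratios, and all probes of a named interval. Arrays limit precision by their number. The group of 1 mouse rests on its time label. Labels speak of 5 samples per group, and 3 or 4 mice are analysed here.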

Additional observations from a re-analysis of the deposited data

Results flagged for a closer look

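In 71 sets of 4 mice, 1 set per called probe and group, the highest or lowest mouse was compared with the others by Dixon's rule. In 11 sets it stood apart. Chance flags about 1 in 20 independent sets. These sets share mice and loci and were picked by their calls, so that rate is no measure for the 11. At 162 µg at day 1 the mouse apart was replicate 3, which carried muscle transcripts, in 3 probes: A_30_P01026091 on chromosome 6 at -1.33 (the others from -0.84 to -0.76), A_30_P01027827 on chromosome 2 at -0.31 (0.32 to 0.41) and A_30_P01022612 on chromosome 5 at 0.64 (0.40 to 0.42). Each of the 3 values lay towards the controls. Among the controls of day 1, all with muscle transcripts, replicate 4 was apart in A_30_P01027827 at -0.63 (-0.41 to -0.36) and replicate 2 in A_30_P01021866 on chromosome 6 at -1.94 (-1.44 to -1.34).

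At 162 µg at day 28, replicate 1, the mouse with conflicting day labels, was low in A_30_P01031526 on chromosome 1 at -0.17 (0.21 to 0.26) and in A_30_P01019306 on chromosome 11 at 0.14 (0.67 to 0.75). Replicate 4 was low in A_30_P01031689 on chromosome 9 at 0.30 (1.21 to 1.31), and replicate 2 was high in A_30_P01025491 on chromosome 11 at 0.92 (0.65 to 0.68). At 54 µg at day 28, replicate 3, with muscle transcripts, was low in A_30_P01019306 at -0.34 (-0.08 to -0.04) and in A_30_P01026611 on chromosome 6 at -1.42 (-1.28 to -1.26). The part of the muscle transcripts and of the label in these values was not tested.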

How the results depend on the processing

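The 48 called changes (of a probe in a comparison) kept their sign in each of the 14 to 16 alternatives that could test them. They also kept it when a mouse was left out. Much of this was fixed in advance. Alternatives that changed only the filter, the probes kept per interval, the groups fitted or the brightness scale used the same group means. The groups of each called change did not overlap, so leaving out 1 mouse could not turn its sign. Other values in the text were not recomputed. Counts of called region probes moved more. The 16 at 162 µg at day 1 became 2 with median centring, 8 with 1 probe per interval, 0 with the groups compared fitted alone, 55 with 36 arrays and the mouse as a random block, 579 with array weights, 77 with the slide as a block, 4 with the conflicting mouse in day 1, 34 without the muscle arrays and 46 with muscle and squamous covariates; leaving out 1 mouse gave 7 to 45. The 14 at day 28 became 7 with the scanner's processed signals, 8 with an offset of 16, 9 with median centring, the authors' deposited value table, no filter, or the conflicting mouse left out or in day 1, 6 with 1 probe per interval, 105 with array weights, 32 with the slide block, 23 without the muscle arrays and 22 with the covariates; leaving out 1 mouse gave 3 to 11. The 18 against 54 µg at day 28 became 6 with 1 probe per interval, 1 with the groups fitted alone, 1059 with array weights, 31 with the slide block and 6 with the covariates; leaving out 1 mouse gave 7 to 30. The slide block kept 16, 13 and 17 of these calls, and 15 of the 16 day 1 calls were kept with array weights, which ran from 0.22 to 10.7.

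Zero counts rose with array weights to 269 for 54 µg at day 1, 590 for 54 µg at day 28, 764 for 162 against 54 µg at day 1, 91 for the difference between days at 162 µg and 682 for that at 54 µg. Without the muscle arrays they were 4, 10, 4, 2 and 9 in the same order, 2 for 18 µg at day 1, 2 for the difference between days at 18 µg and 4 between the control days; that fit leaves 19 mice, and the lone mouse of 2 groups is assumed to vary like the others. No filter gave 1 for 54 µg at day 1. For 162 against 54 µg at day 1, 36 arrays and the slide block gave 8 each and the covariates 1, and for the difference between days at 162 µg the first 2 gave 6 each; leaving out 1 mouse gave 0 to 1 in both. The cause was not tested; 1 probe per interval tests fewer probes.

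Within slides, all 16 changes of day 1 kept their sign in 5 of 5 slides, and 13 of 14 of day 28 in 4 of 4, the other (A_30_P01019306) in 3. Against 54 µg at day 28, 11 of 18 did so in 5 of 5 slides, and 7 had the opposite sign in 1 slide (A_30_P01017895 at -0.02, A_30_P01031526 and A_30_P01024163 at -0.14, A_30_P01025572 at -0.08, A_30_P01019306 at -0.20, A_30_P01021136 at -0.14, A_30_P01021597 at -0.09). Groups of each called change did not overlap, so the sign between mice with 1 array each was fixed in advance. It could turn just in slides where a mouse had more than 1 array in all, so most of these kept signs add no support. No paired analysis was possible by replicate, because the labels give the groups no shared replicate numbers to pair by. The compared groups did share slides, but the main fit, with its 16, 14 and 18 calls, left the slide out. The slide served as the block in an alternative fit alone, where these counts were 77, 32 and 31.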
